A study of Mus musculus with 15 samples.

Results

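The fibroblast growth factor (FGF) receptors Fgfr1, Fgfr2, Fgfr3 and Fgfr4, the receptor-like gene Fgfrl1 and the ligand Fgf2 were followed across 5 groups of sorted mouse brain tumour and neurosphere cells. Members were chosen by name: each probe set of the array whose annotated gene symbol is one of these 6 genes was taken. This gave 16 of 45037 probe sets without controls and 6 of 18193 annotated genes. Fgfr1 had 3 probe sets, Fgfr2 had 3, Fgfr3 had 2, Fgfr4 had 5, Fgfrl1 had 2 and Fgf2 had 1. Tumour SP cells of tumorsphere 4346 had higher Fgfr2 and Fgfrl1 than neurosphere SP cells, and tumour non-SP cells of tumorsphere 3447 had higher Fgfr2 and Fgfrl1, by 1 of its probe sets, than neurosphere non-SP cells. In 3447 SP against neurosphere SP cells 0 of 8 tested member probe sets passed, where 15.2% of all tested probe sets did. The Fgfr2 log2 difference there was 0.96 (limma adjusted p = 0.0571), beside 1.03 in 4346 SP cells. Between 3447 SP and 4346 SP cells 0 of 8 passed, so the 0 of 8 does not set 3447 SP cells apart. No member passed the test between SP and non-SP cells, where only 1 of 26256 probe sets did in 3447 and 3 in neurospheres.

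FGF ligands bind receptor tyrosine kinases on the cell surface together with heparan sulfate chains, and the receptors then pass the signal on through adaptor proteins to the MAP kinase and PI3 kinase pathways. Fgfrl1 binds FGFs but lacks the intracellular kinase domain of the other receptors. Fgf2 is a standard supplement of neural stem cell cultures, and FGF signalling also acts on oligodendrocyte progenitors and astrocytes. Whether Fgf2 was added to these cultures is not stated in the sources used here.

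The study asked how the origin of cells and their sorted population relate to gene expression. Side population (SP) cells are those that pump a DNA dye out, and non-SP cells are the remainder of the sort. Tumorspheres 3447 and 4346 are cell cultures from brain tumours of S100beta-verbB;p53-/- or S100beta-verbB;p53+/- animals. Each was injected intracranially into 3 recipients of the immunodeficient strain NOD.Cg-Prkdc<scid>Il2rg<tm1Wjl>/SzJ. Cells from each recipient were cultured as tumorspheres and sorted. This gave 3 arrays of 3447 SP cells, 3 of 3447 non-SP cells and 3 of 4346 SP cells. The controls were 3 arrays of SP cells and 3 of non-SP cells of untransformed neurospheres from 3 independent mice. The labels do not give which p53 genotype each sample had. The control mice were also S100beta-verbB;p53-/- or S100beta-verbB;p53+/-, so all 5 groups carry v-erbB under the S100beta promoter, and a difference in p53 genotype between groups cannot be told apart from origin. The 3 arrays of a tumorsphere group stand for 3 recipient mice of 1 tumorsphere, so their spread leaves out differences between tumours. One passage of the series text describes the neurosphere cells as coming from injected mice, which leaves that step uncertain.

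Fgfr2 and Fgfrl1 carried the differences described below, and their start regions are shown for that reason, from RefSeq on build GRCm38.p6. Each window spans 250 bases before to 50 bases after the annotated start of the gene, and 5 of the 6 members had an entry. Capitals mark matches to the letters searched on both strands, where the TATA box was read as TATAAA, the GC box of Sp1 as GGGCGG, the AP-1 site as TGANTCA and the Sox site as ACAAAG.
Fgfr2, chr7:130266759-130267058, minus strand: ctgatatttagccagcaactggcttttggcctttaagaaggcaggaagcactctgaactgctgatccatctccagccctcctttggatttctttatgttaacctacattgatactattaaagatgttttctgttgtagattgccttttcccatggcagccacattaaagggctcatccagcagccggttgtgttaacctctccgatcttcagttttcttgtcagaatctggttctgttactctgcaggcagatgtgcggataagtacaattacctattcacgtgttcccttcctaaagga
Fgfrl1, chr5:108693979-108694278, plus strand: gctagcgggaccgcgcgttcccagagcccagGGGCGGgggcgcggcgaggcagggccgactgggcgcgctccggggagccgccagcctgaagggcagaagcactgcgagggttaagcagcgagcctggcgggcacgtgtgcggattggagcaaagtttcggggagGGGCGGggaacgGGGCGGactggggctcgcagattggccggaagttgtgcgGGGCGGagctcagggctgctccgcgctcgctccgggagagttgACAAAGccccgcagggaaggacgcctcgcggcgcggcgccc
The Fgfr2 window held 4 CG pairs and none of the 4 motifs, and the Fgfrl1 window held 37 CG pairs, 4 GC boxes and 1 Sox match. The median over 32851 promoters was 7 CG pairs. Of these promoters, 13.6% held TATAAA, 35.7% held GGGCGG, 7.81% held TGANTCA and 18.7% held ACAAAG. The windows of Fgfr2 and Fgfrl1 thus differ in base composition, and a link between these letters and the signals was not tested. A match in such a window describes letters and is not a measured site.

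Depth on an array is set by signal over background and by the number of arrays, here 3 per group. The array medians ran from 40.0 to 89.3 signal units, and the highest belonged to array 3 of the 3447 SP group. Array 3 of the 4346 SP group stood apart in RNA quality, with an actin 3′/5′ signal ratio of 5.30, against 2.49 to 3.29 on the other 14 arrays. Its Gapdh 3′/5′ ratio of 2.00 was also the highest, with 1.33 the lowest on any array. The 4346 SP differences that a call or a high array 3 concerns are therefore also given without it, beside the gene or, for the wider pathway, after its last list.

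Only probe sets brighter than the array median on 3 or more arrays were tested, and 8 of the 16, from 4 genes, met this. These were the 3 of Fgfr1, 1 of Fgfr2, both of Fgfr3 and both of Fgfrl1. The single Fgf2 probe set and all 5 of Fgfr4 lay below the median on each of the 15 arrays. The other Fgfr2 probe sets, 1420847_a_at and 1443211_at, were each above it on 1 array. Low signal on these probe sets does not show that a transcript was absent, since probe sets differ in how well they bind.

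**Figure D1:**
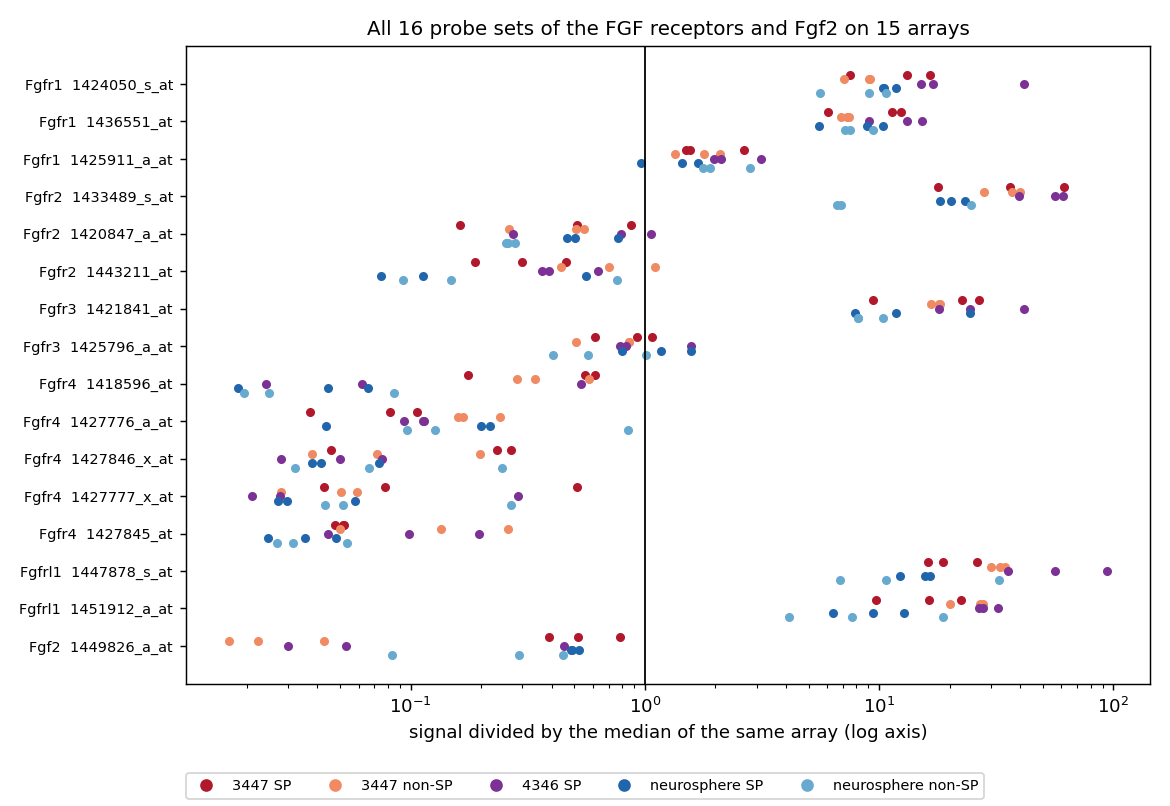
Signal of each of the 16 probe sets divided by the median of the same array, on a log axis, with 1 point per array coloured by group; the vertical line marks the array median. Points left of the line on all 15 arrays are those of Fgfr4 and Fgf2, while 1433489_s_at of Fgfr2 and both Fgfrl1 probe sets lie right of it on all 15. Positions are not comparable between probe sets.

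Fgfr2 encodes a receptor whose splice forms bind different FGFs. Its bright probe set 1433489_s_at gave deposited MAS5 signals of 2278, 2662 and 1599 in 3447 SP cells and 1476, 1612 and 1774 in 3447 non-SP cells. In 4346 SP cells it gave 2335, 2587 and 1938. Neurosphere SP cells gave 903, 1047 and 1319, and neurosphere non-SP cells gave 337, 469 and 1118. Each of the 9 tumour arrays was above each of the 6 neurosphere arrays.

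Fold changes were estimated on log2 of the quantile-normalized signal plus 16, which understates the change of dim probe sets, and tested with limma over 26256 probe sets with Benjamini-Hochberg adjustment at 0.05. Fgfr2 was higher in 3447 non-SP cells than in neurosphere non-SP cells by 1.51 ± 0.32 (log2, SE), 2.85-fold, with a limma adjusted p of 0.00406. It was higher in 4346 SP cells than in neurosphere SP cells by 1.03 ± 0.32, 2.04-fold, with a limma adjusted p of 0.0344. In 3447 SP cells against neurosphere SP cells the difference was 0.96 ± 0.32 and did not pass (limma adjusted p = 0.0571), although each 3447 SP array was above each neurosphere SP array. The 4346 call was lost in 4 of the fits that left out a single array. The limma adjusted p was 0.0759 when 4346 SP array 1 was absent and 0.0923 when array 2 was, and for neurosphere SP arrays 1 and 2 it was 0.112 and 0.0815. It was kept without the 4346 array of poor 3′/5′ ratio, at 1.13 with a limma adjusted p of 0.0466.

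Within the neurospheres, Fgfr2 averaged 1090 ± 211 in SP cells and 641 ± 418 in non-SP cells (SD, n = 3 each), with 1 non-SP array, at 1118, inside the SP range. Equally numbered SP and non-SP neurosphere arrays deviated together, and within numbers SP cells were higher in 3 of 3, by 1.39, 1.22 and 0.28 on the log2 scale. The SP minus non-SP difference of 0.96 ± 0.32 had an unadjusted limma p of 0.0088 and an adjusted p of 1.00, or 0.27 with that number as a block. In 3447 the same difference was 0.41 ± 0.32 (limma adjusted p = 0.853), and the difference between these SP effects was -0.56 ± 0.46 (limma adjusted p = 1.00). The dim probe sets of Fgfr2 had signals no higher than 52.0 for 1420847_a_at and 44.4 for 1443211_at. Without the filter on low values, neither passed in any of the 7 comparisons.

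Fgfrl1 was measured by 2 probe sets that tracked each other, with r = 0.862 over the 15 arrays on the log2 scale, a description since the arrays share the same groups. Its probe set 1447878_s_at gave 1181, 1126 and 1439 in 3447 SP cells and 1380, 1889 and 1335 in 3447 non-SP cells. The 4346 SP arrays gave 2330, 1504 and 4571, the last on the array of poor 3′/5′ ratio. Neurosphere SP cells gave 780, 636 and 939 and neurosphere non-SP cells gave 545, 463 and 1476. Array 3 of the neurosphere non-SP group lay within the range of the 3447 non-SP group, while its other arrays lay below it.

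By the second probe set, 1451912_a_at, Fgfrl1 gave 1025, 969 and 871 in 3447 SP cells and 1106, 1164 and 1189 in 3447 non-SP cells. In 4346 SP cells the signals were 1328, 1130 and 1360. They were 314, 487 and 722 in neurosphere SP cells and 389, 282 and 853 in neurosphere non-SP cells. Here each tumour array lay above each neurosphere array.

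In 4346 SP cells against neurosphere SP cells both Fgfrl1 probe sets rose, 1447878_s_at by 1.64 ± 0.40 (3.11-fold, limma adjusted p = 0.00812) and 1451912_a_at by 1.32 ± 0.34 (2.50-fold, limma adjusted p = 0.0121). Without the 4346 array of poor 3′/5′ ratio, these were 1.21 (limma adjusted p = 0.0467) and 1.27 (0.0373). In 3447 non-SP cells against neurosphere non-SP cells, 1451912_a_at rose by 1.33 ± 0.34 (2.52-fold, limma adjusted p = 0.0134). The other probe set differed by 1.07 ± 0.40 there and did not pass (limma adjusted p = 0.0829). It passed at 1.58 (limma adjusted p = 0.00648) once array 3 of the neurosphere non-SP group was left out, and also without array 3 of the 4346 SP group (0.0426). The call for 1451912_a_at was lost without neurosphere non-SP array 1 or 2 (limma adjusted p = 0.0525 and 0.0730), and in the 4346 comparison without neurosphere SP array 1 (0.0652).

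In 3447 SP cells against neurosphere SP cells neither Fgfrl1 probe set passed, at 0.91 ± 0.34 for 1451912_a_at (limma adjusted p = 0.0861) and 0.64 ± 0.40 for 1447878_s_at (0.320). The arrays did not overlap on either. Between 3447 SP and 4346 SP cells, 1447878_s_at was lower in 3447 without overlap, with a 95% interval of the log2 difference of -1.84 to -0.16, and did not pass (limma adjusted p = 0.248). The difference was -0.58 without 4346 array 3. The second probe set gave -0.41 ± 0.34 for the same pair (limma adjusted p = 0.593). SP and non-SP cells differed by -0.28 ± 0.40 and -0.27 ± 0.34 in 3447 and by 0.16 ± 0.40 and 0.15 ± 0.34 in neurospheres, for 1447878_s_at and 1451912_a_at in that order, and none passed.

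**Figure D2:**
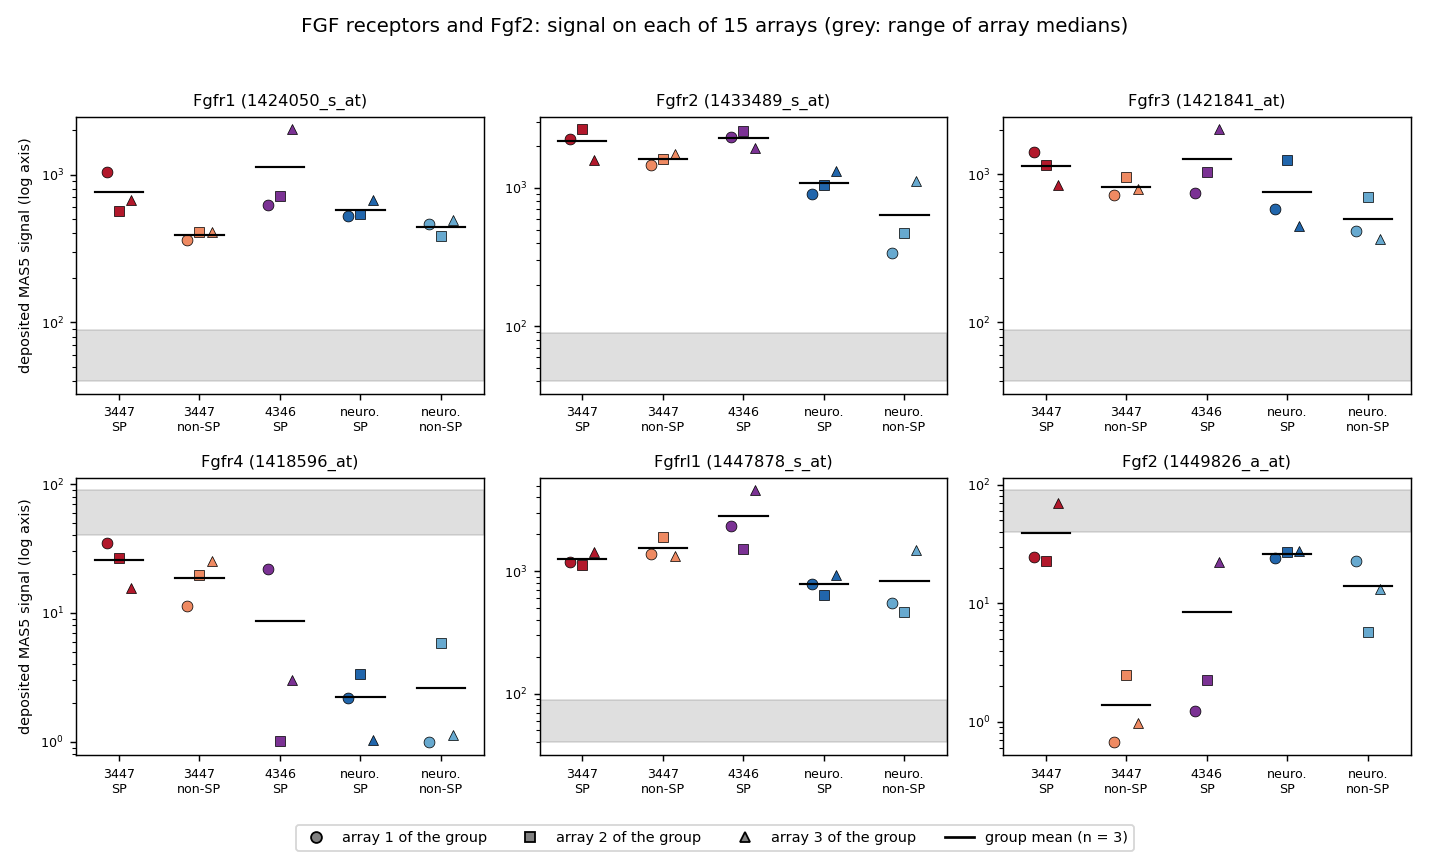
Deposited MAS5 signal (log axis) of the brightest probe set of each of the 6 genes on 15 arrays, by group; each marker is 1 array, the black bar is the group mean (n = 3), and the grey band spans the array medians, 40.0 to 89.3. Fgfr2 and Fgfrl1 sit higher in the tumour groups than in most neurosphere arrays, and Fgfr4 lies under the grey band in each group. The y axes differ between panels.

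Fgfr1, a receptor for Fgf1 and Fgf2, was highest in SP cells of the tumorspheres by its brightest probe set. Probe set 1424050_s_at gave 1042, 567 and 671 in 3447 SP cells and 363, 407 and 406 in 3447 non-SP cells. The 4346 SP arrays gave 626, 720 and 2025, the last again on the array of poor 3′/5′ ratio. Neurosphere SP cells gave 523, 541 and 669 and neurosphere non-SP cells gave 460, 382 and 489. The 3447 SP arrays lay above the 3447 non-SP arrays without overlap, and so did the neurosphere SP arrays above the neurosphere non-SP arrays.

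None of these Fgfr1 differences passed. In 3447, SP minus non-SP was 0.87 ± 0.36 (95% interval 0.12 to 1.62) with an unadjusted limma p of 0.0261 and an adjusted p of 0.675. The second probe set, 1436551_at, gave 713, 538 and 541 in 3447 SP cells and 298, 423 and 305 in 3447 non-SP cells. Its difference of 0.76 ± 0.29 had an unadjusted limma p of 0.0196 and an adjusted p of 0.659. The third, 1425911_a_at, averaged 123 ± 51.0 in 3447 SP cells and 80.7 ± 10.7 in 3447 non-SP cells (SD, n = 3 each), with overlap.

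The probe sets of Fgfr1 did not share a pattern in the neurospheres. SP minus non-SP was 0.43 ± 0.36 for 1424050_s_at, 0.022 ± 0.29 for 1436551_at and -0.54 ± 0.30 for 1425911_a_at, and none passed (limma adjusted p = 1.00 each). Over the 15 arrays the 3 pairs of Fgfr1 probe sets had r of 0.654, 0.316 and 0.558 on the log2 scale. Between origins, Fgfr1 differed by -0.34 to 0.71 over its probe sets, with no call. The 0.71 ± 0.36, of 1424050_s_at in 4346 SP against neurosphere SP cells (limma adjusted p = 0.177), included the 4346 array that read 2025, and was 0.18 without it (limma adjusted p = 0.704).

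Fgfr3, a receptor found on astrocytes and their precursors, had 1 bright and 1 dim probe set. The bright one, 1421841_at, gave 1422, 1156 and 845 in 3447 SP cells and 723, 962 and 802 in 3447 non-SP cells. The 4346 SP arrays gave 751, 1037 and 2022, the neurosphere SP arrays 588, 1260 and 446, and the neurosphere non-SP arrays 415, 705 and 369. The neurosphere SP arrays spread so widely that they spanned most 3447 values. The differences were 0.64 ± 0.39 in 3447 SP cells and 0.70 ± 0.39 in 4346 SP cells against neurosphere SP cells, and 0.74 ± 0.39 in 3447 non-SP cells against neurosphere non-SP cells. None passed (limma adjusted p = 0.297, 0.219 and 0.228), and the 4346 value was 0.31 without the array that read 2022, although the arrays of the last pair did not overlap. The dim probe set 1425796_a_at, above the array median on 5 of 15 arrays, gave -0.37 ± 0.38, -0.15 ± 0.38 and 0.15 ± 0.38 in the same order.

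Fgf2, the ligand, had signals of 24.5, 22.5 and 70.1 in 3447 SP cells and 0.674, 2.47 and 0.985 in 3447 non-SP cells. The 4346 SP arrays gave 1.24, 2.24 and 22.1. Neurosphere SP cells gave 24.2, 27.1 and 27.4 and neurosphere non-SP cells gave 22.8, 5.69 and 13.2. These signals all lay below the median of their arrays, so no fold is given. The 3447 SP arrays lay above the 3447 non-SP arrays without overlap, where 16% of the tested probe sets also did not overlap in either direction. The 70.1 was read on the array with the highest median, 89.3. With no filter on low values the unadjusted limma p of this pair was 0.000934 and the adjusted p 0.414. Nudt6, the gene antisense to Fgf2, averaged 97.6 ± 48.0 in 3447 SP cells and 72.2 ± 25.2 in 3447 non-SP cells (SD, n = 3 each) and did not pass in any comparison.

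Fgfr4, a receptor best known from liver and muscle, gave 35.0, 26.5 and 15.7 by its brightest probe set 1418596_at in 3447 SP cells and 11.4, 19.6 and 25.5 in 3447 non-SP cells. The 4346 SP arrays gave 22.1, 1.02 and 3.02. The 6 neurosphere arrays ran from 0.994 to 5.80. On this probe set the 3447 arrays were thus above the neurosphere arrays within signals that were below each array's median. The other Fgfr4 probe sets did not all go this way. For 1427776_a_at the means were 5.21 and 8.75 in 3447 SP and non-SP cells, and 8.26 and 17.4 in neurosphere SP and non-SP cells. With no filter, none of the 5 Fgfr4 probe sets passed in any of the 7 comparisons.

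Counted over the tested probe sets, 3 of 8 passed in 4346 SP against neurosphere SP cells, each higher, where 19.8% of the 26256 probe sets passed in either direction and 10.2% were higher. In 3447 non-SP against neurosphere non-SP cells 2 of 8 passed, both higher, where 15.2% of probe sets passed and 8.16% were higher. In 3447 SP against neurosphere SP cells 0 of 8 passed, where 15.2% of probe sets did. There the 95% interval was 0.27 to 1.64 for Fgfr2 and 0.19 to 1.64 for 1451912_a_at of Fgfrl1. The 3447 SP and 4346 SP comparisons share control arrays, and with 8 probe sets of 4 genes a count is a description. The median log2 difference of the 8 was 0.70, 0.45 and 0.56 in that order, and that of the 26256 probe sets was -0.072, -0.017 and -0.045. Signals were fully separated between the groups for 4 of the 8 in 4346 SP against neurosphere SP cells (34.9% of all probe sets), for 4 in 3447 non-SP against neurosphere non-SP cells (35%) and for 3 in 3447 SP against neurosphere SP cells (32.3%).

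Between 3447 SP and 4346 SP cells 0 of 8 passed, where 1.2% of probe sets did. Between SP and non-SP cells 0 of 8 passed in 3447, where 0.00381% (1 probe set) did, and 0 of 8 in neurospheres, where 0.0114% (3 probe sets) did. At an unadjusted p under 0.05, 1817 of 26256 probe sets differed in 3447 and 1134 in neurospheres. The difference between these SP effects passed for 0 of 8 and for 0% of all probe sets, with 653 under an unadjusted p of 0.05. Full separation was seen for 2 of 8 between 3447 SP and 4346 SP cells (18.8% of all probe sets), for 3 of 8 between SP and non-SP cells in 3447 (16%) and for 2 of 8 in neurospheres (9.04%). Where equally numbered SP and non-SP neurosphere arrays were paired as a block, the neurosphere count was 11 probe sets and the 3447 count 5, with 0 members in either.

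**Figure D3:**
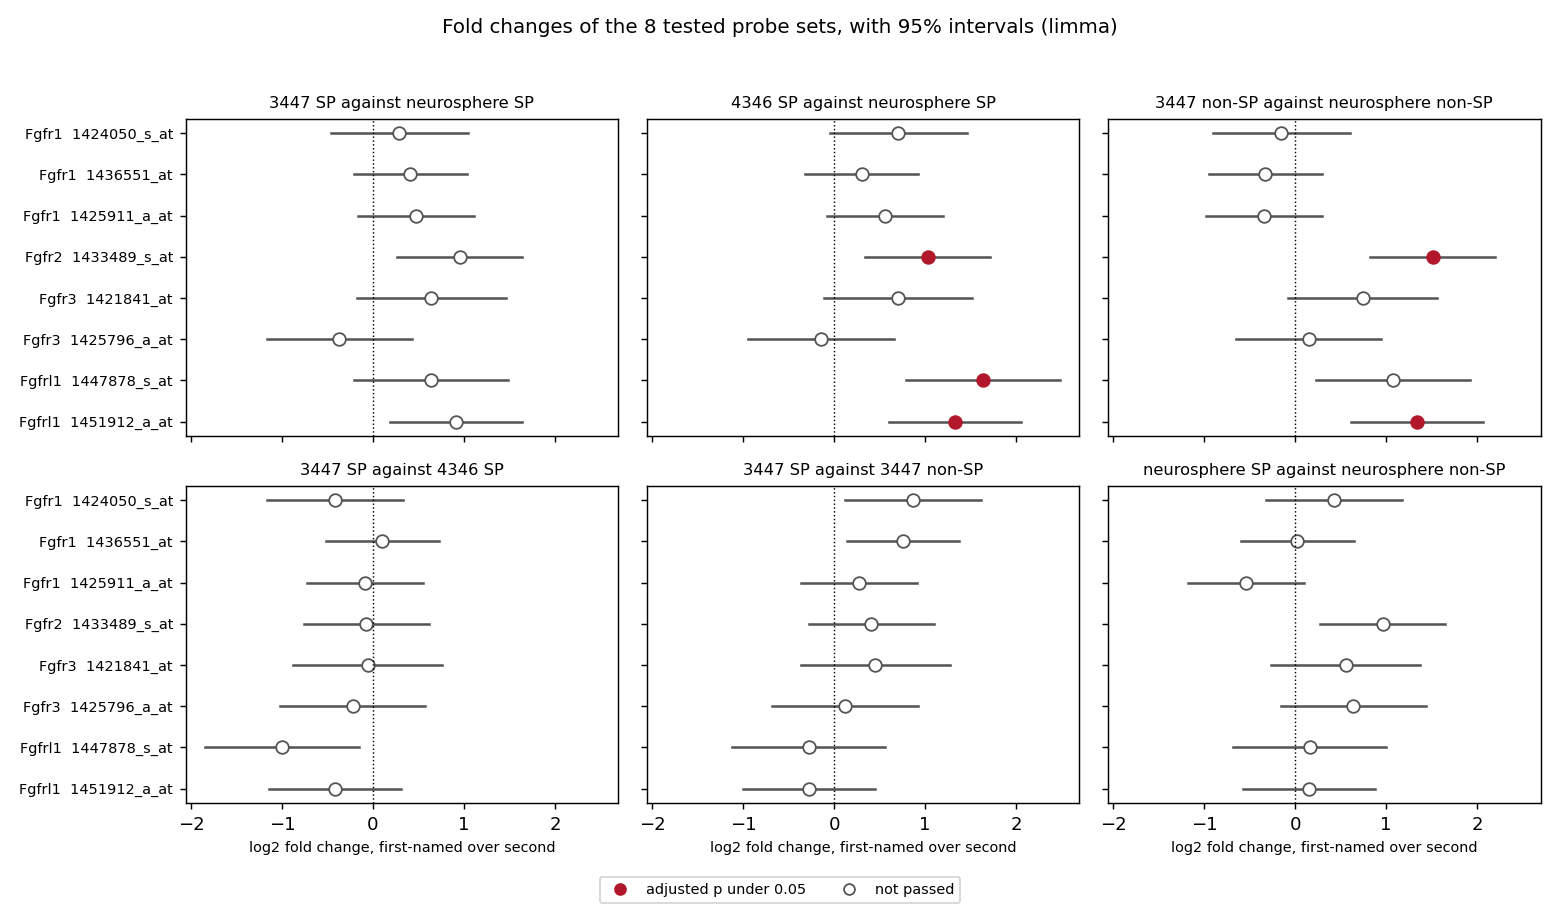
Log2 fold change (x axis) of the 8 tested probe sets in 6 comparisons, first-named group over second, with 95% intervals from limma; filled points had an adjusted p under 0.05. The 5 filled points belong to Fgfr2 and Fgfrl1 in the 4346 SP and 3447 non-SP comparisons with neurospheres. The lower panels hold none.

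The genes whose pattern over the 15 arrays was most like each receptor's were listed as a description, from 11378 other genes and with Pearson's r on the log2 scale. For Fgfr2 these were Jund (r = 0.943), Anks1 (0.926) and Rab3d (0.923). For Fgfrl1 they were Mvb12a (0.955), Csad (0.945) and Tns3 (0.945). For Fgfr1 they were Cnep1r1 (0.928), Chid1 (0.883) and Cdkn2a (0.878), and for Fgfr3 Tst (0.891), Ttyh1 (0.891) and Dhh (0.881). The arrays share groups and scaling. After each group's mean was taken out, r was 0.806, 0.640 and 0.644 for Jund, Anks1 and Rab3d with Fgfr2, and 0.905, 0.881 and 0.916 for Mvb12a, Csad and Tns3 with Fgfrl1. For the genes named with Fgfr1 and Fgfr3 it ran from 0.790 to 0.891 and from 0.797 to 0.819.

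The other genes of the pathway were read by their brightest tested probe set. Over all 11908 genes read this way, 18.5% passed in 3447 SP, 23.4% in 4346 SP and 18.5% in 3447 non-SP cells, each against the matching neurosphere cells. The median log2 difference of those genes was -0.029, 0.016 and 0.040 in that order. Among the other FGF ligands, 6 of 21 genes were tested, with medians of -0.92, -0.15 and -0.97. Fgf1, which binds each FGF receptor, was lower in tumour cells. Its signals were 67.6, 22.1 and 145 in 3447 SP cells, 53.5, 32.2 and 22.3 in 3447 non-SP cells, and 39.5, 83.0 and 77.7 in 4346 SP cells. They were 867, 783 and 1905 in neurosphere SP cells and 1164, 600 and 3358 in neurosphere non-SP cells. Fgf1 fell in each comparison with the matching neurosphere cells, with log2 differences of -3.88 ± 0.53 in 3447 SP cells (limma adjusted p = 7.84e-05), -3.65 ± 0.53 in 4346 SP cells (0.00014) and -4.59 ± 0.53 in 3447 non-SP cells (1.35e-05). Its other 2 tested probe sets gave differences of -2.88 to -0.63 in these comparisons. Fgf1 was above the array median on 2 of 3 arrays of 3447 SP, 1 of 3 of 3447 non-SP and 2 of 3 of 4346 SP cells. The size of these differences is therefore imprecise. Fgf14, an intracellular FGF that binds sodium channels, was lower in 3447 non-SP cells (limma adjusted p = 0.00252), averaging 11.9 ± 10.2 there and 381 ± 413 in neurosphere non-SP cells (SD, n = 3 each). Its signal was below the array median on all 9 tumour arrays, so no fold is given, and it entered the test only through the neurosphere arrays where it is high. The other 4 tested ligands, Fgf9, Fgf11, Fgf12 and Fgf13, did not pass in these comparisons.

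Of 20 tested co-receptor and heparan sulfate genes, 4 were higher and 5 lower in 3447 SP cells, 6 and 3 in 4346 SP cells, and 2 and 5 in 3447 non-SP cells, each against the matching neurosphere cells. Their median differences were -0.27, 0.069 and 0.14. The glypican Gpc4 fell by 3.61 ± 0.49 in 3447 SP cells (119 ± 47.4, against 1686 ± 1152 in neurosphere SP cells, limma adjusted p = 7.71e-05). In 3447 non-SP cells it fell by 3.26 ± 0.49 (limma adjusted p = 0.00021). It did not pass in 4346 SP cells, at -1.16 (limma adjusted p = 0.111), and the 3447 SP minus 4346 SP difference was -2.45 ± 0.49 (0.0216). The glypican Gpc6 rose in all 3 comparisons, by 1.25, 1.06 and 1.45 in 3447 SP, 4346 SP and 3447 non-SP cells. Its 4346 call was lost without 4346 SP array 1 or 2 or neurosphere SP array 1 or 2 (limma adjusted p = 0.0625 to 0.0927), and its 3447 SP call without neurosphere SP array 1 (0.0536). The sulfotransferase Hs3st1 was higher in the same 3 comparisons (limma adjusted p = 0.00734, 0.00306 and 0.016), with 191, 201 and 116 in 3447 SP cells, 207, 160 and 110 in 4346 SP cells and 41.1, 150 and 178 in 3447 non-SP cells. The 6 neurosphere arrays ran from 23.5 to 36.4, each below its array median, so no fold is given, and Hs3st1 entered the test only through the tumour arrays. Its 3447 non-SP call was lost without 3447 non-SP array 2 or 3 or neurosphere non-SP array 2 (limma adjusted p = 0.0515 to 0.0941). The syndecan Sdc4 fell, with differences of -1.22, -1.06 and -2.46 in the same order, and averaged 1208 ± 244 in 3447 non-SP cells and 6813 ± 2675 in neurosphere non-SP cells (SD, n = 3 each). Its 4346 call was lost without 4346 SP array 1 (limma adjusted p = 0.0562). Hspg2, the basement membrane proteoglycan perlecan, rose by 1.95 ± 0.46 in 4346 SP cells (limma adjusted p = 0.00698), with 380, 486 and 1742 there, the last on the array of poor 3′/5′ ratio, and 120, 130 and 273 in neurosphere SP cells. The sulfotransferase Hs6st2 fell, with -1.58 ± 0.39 in 3447 SP cells and -2.17 ± 0.39 in 3447 non-SP cells (limma adjusted p = 0.0102 and 0.000992). Its other 2 tested probe sets gave -1.02 and -0.63 in 3447 SP cells and -0.21 and -0.050 in 3447 non-SP cells. The 3447 SP call was lost without 3447 SP array 2 (limma adjusted p = 0.0515). Smaller calls were 0.76 for Sdc2 in 3447 SP cells, and -1.13 for Gpc2 and -0.61 for Hs2st1 in 4346 SP cells, lost in 9, 0 and 1 of 26 alternatives.

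Of 14 tested adaptors and effectors, 2 were higher and 1 lower in 3447 SP cells, 2 and 1 in 4346 SP cells, and 1 and 1 in 3447 non-SP cells. The medians of this list were 0.12, -0.17 and 0.12. Pik3r1, the regulatory subunit of PI3 kinase, rose by 1.37 ± 0.15, 1.28 ± 0.15 and 0.83 ± 0.15 in 3447 SP, 4346 SP and 3447 non-SP cells (limma adjusted p = 9.29e-06, 1.93e-05 and 0.00124). Gab1, a docking protein that recruits it, rose by 1.24 ± 0.21 and 1.08 ± 0.21 in 3447 SP and 4346 SP cells (limma adjusted p = 0.000615 and 0.00172), while 3447 non-SP cells differed by 0.53 (0.106). The other 2 tested Gab1 probe sets ran from 0.16 to 1.41 in 3447 SP cells and from 0.068 to 1.14 in 4346 SP cells. The calls for Crkl in 3447 SP cells (-1.14), Sos2 in 4346 SP cells (-0.90) and Cbl in 3447 non-SP cells (-0.87) were lost in 8, 19 and 4 of 26 alternatives. The adaptors Grb2, Shc1, Sos1, Ptpn11 and Frs3 and the phospholipase Plcg1 did not pass in these comparisons.

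Of 14 tested feedback and target genes, 1 was higher and 2 lower in 3447 SP cells, 1 and 1 in 4346 SP cells, and 1 and 2 in 3447 non-SP cells. Their medians were -0.41, -0.26 and -0.11. Sprouty proteins restrain receptor tyrosine kinase signalling, and they did not move one way. Spry3 rose by 1.89 ± 0.35, 2.17 ± 0.35 and 1.82 ± 0.35 in 3447 SP, 4346 SP and 3447 non-SP cells. Its signal ran from 146 to 369 on the tumour arrays and from 28.8 to 74.5 on the neurosphere arrays. The latter lay near the array median, above it on 1 of 3 SP and 2 of 3 non-SP arrays, so these differences are imprecise. Spry4 fell in 3447, with -1.86 ± 0.41 in SP cells and -1.59 ± 0.41 in non-SP cells (limma adjusted p = 0.00467 and 0.0126), and differed by -1.18 in 4346 SP cells (0.0502). Its 3447 non-SP call was lost without 3447 non-SP array 2 or 3 or neurosphere non-SP array 3 (limma adjusted p = 0.0556 to 0.0658). Spry2 fell, with -0.77 ± 0.17 in 4346 SP cells and -0.59 ± 0.17 in 3447 non-SP cells. These calls were lost in 2 and 8 of 26 alternatives, with limma adjusted p up to 0.234 and 0.525, and the other tested Spry2 probe set gave -0.21 and -0.42. The 3447 non-SP call did not hold without 3447 non-SP array 2 or 3 or neurosphere non-SP array 1 or 3 (limma adjusted p = 0.0634 to 0.0992). Flrt2, a membrane protein that can bind FGF receptors, fell by 2.11 ± 0.43 in 3447 SP cells (limma adjusted p = 0.00296), with 178, 203 and 92.1 there and 820, 697 and 321 in neurosphere SP cells. Dusp6, Etv4 and Etv5, transcripts known to follow FGF signalling, did not pass, with Dusp6 at 0.13, 0.050 and 0.076 in 3447 SP, 4346 SP and 3447 non-SP cells.

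Among 4 receptor partners and antisense genes, the cadherin Cdh2 fell, with differences of -1.04, -0.94 and -0.89 in 3447 SP, 4346 SP and 3447 non-SP cells. The 3447 non-SP call was lost without 3447 non-SP array 3 (limma adjusted p = 0.052). The adhesion protein L1cam had signals of 62.4, 139 and 1856 in 4346 SP cells, the last on the array of poor 3′/5′ ratio, against 43.5, 20.6 and 33.4 in neurosphere SP cells, each below its array median. Its limma adjusted p of 0.0314 became 0.15 without that 4346 array and 0.052 to 0.0892 without any 1 neurosphere SP array, and the call was lost in 7 of 26 alternatives. Without 4346 array 3, the log2 differences of 4346 SP from neurosphere SP cells were -3.72 for Fgf1, 1.28 for Hspg2, 1.34 for Gpc6, -1.33 for Sdc4, -0.89 for Gpc2, 1.34 for Pik3r1, 1.16 for Gab1, 2.52 for Spry3, -0.52 for Spry2 and -0.91 for Cdh2. Each of these kept its call, as did Hs3st1 and Hs2st1, while Sos2 and L1cam lost theirs. When arrays were centred on their medians, calls were lost for Gpc6 in 3447 SP cells (limma adjusted p = 0.0975), for Sdc4 and Cdh2 in 4346 SP cells (0.117 and 0.0729) and for Cdh2 in 3447 non-SP cells (0.104). Centring also lost Sdc2 and Crkl in 3447 SP cells (0.37 and 0.0957) and Hs2st1, Sos2 and Spry2 in 4346 SP cells (0.358, 0.288 and 0.234). Cbl and Spry2 in 3447 non-SP cells were lost too (0.184 and 0.525), as was Stat3 between 3447 SP and 4346 SP cells (0.0536).

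Over these 5 lists 0 of 58 tested genes passed between SP and non-SP cells of either origin, where 0.0084% of all genes did in 3447 and 0.0168% in neurospheres.

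**Figure D4:**
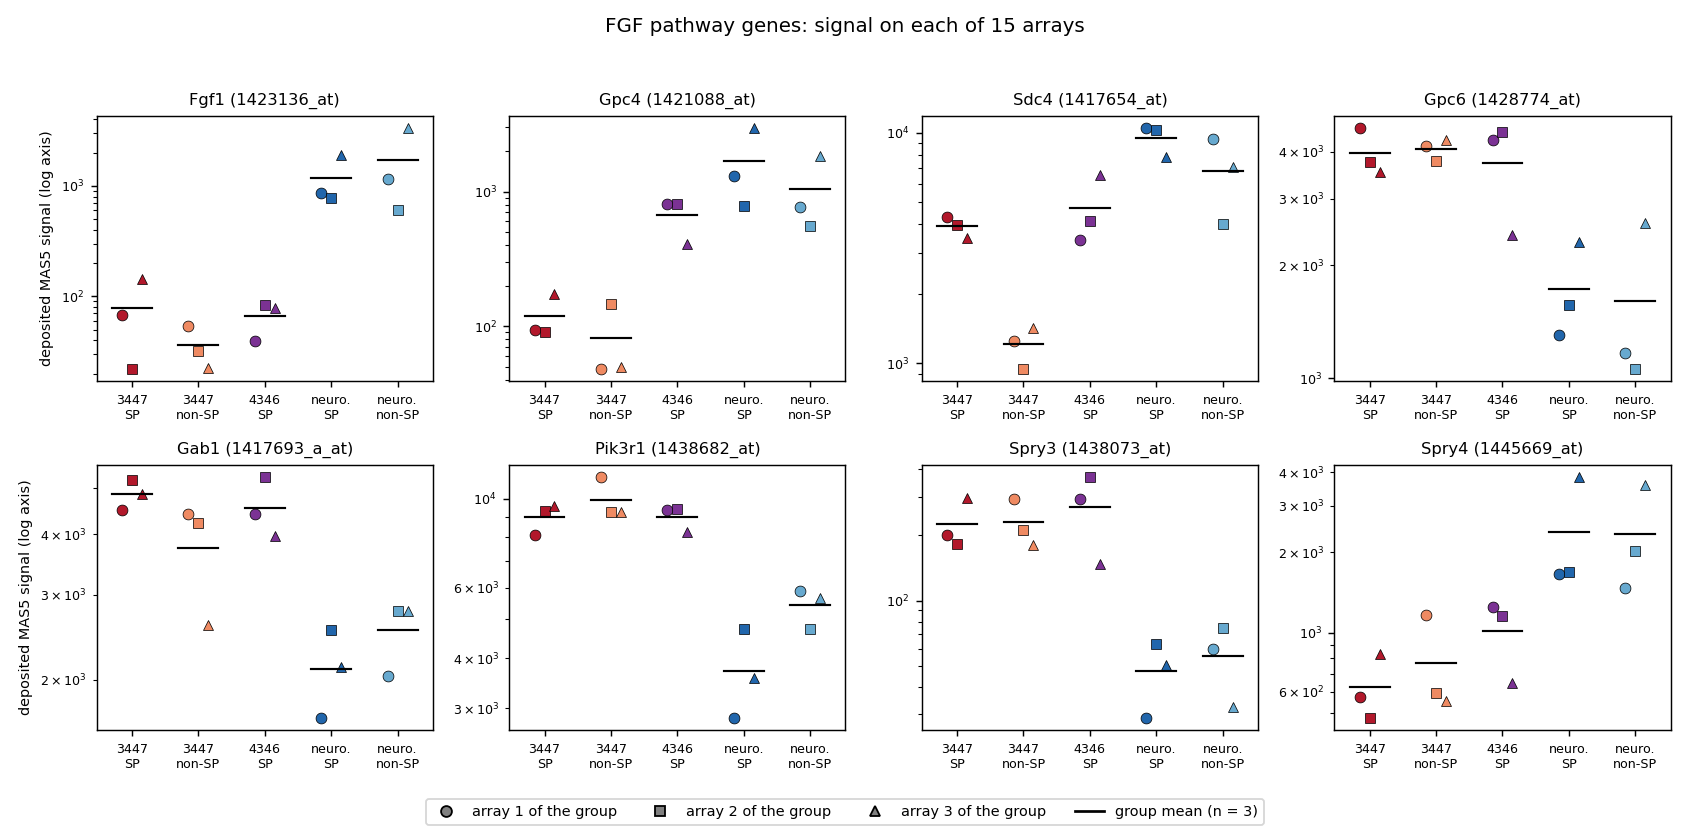
Deposited MAS5 signal (log axis) of 8 genes of the FGF pathway on 15 arrays, by group; each marker is 1 array and the bar is the group mean (n = 3). Fgf1 lies between 22.1 and 145 on the 9 tumour arrays and between 600 and 3358 on the 6 neurosphere arrays. Gpc4 lies between 48.2 and 174 on the 3447 arrays. It reads 805, 807 and 407 on the 4346 SP arrays, and 1299, 777 and 2981 on the neurosphere SP arrays. The y axes differ between panels.

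Some cell type markers differed in the same comparisons. The summed signal of 7 oligodendrocyte progenitor markers ran from 12374 to 17397 in 3447 SP cells, from 19257 to 22190 in 3447 non-SP cells and from 19375 to 24523 in 4346 SP cells. In neurosphere SP cells it ran from 7087 to 12805 and in neurosphere non-SP cells from 9468 to 13470. Of the 7, 5 were higher and 2 lower in 3447 SP cells, 5 and 1 in 4346 SP cells and 4 and 0 in 3447 non-SP cells. Over all genes read by their brightest tested probe set, 18.5%, 23.4% and 18.5% passed in either direction, in that order. Sox10 ran from 2602 to 8730 over the tumour arrays of these groups and from 0.819 to 20.7 over the neurosphere arrays. Each of those neurosphere signals was below its array median, so Sox10 entered the test only through the tumour arrays. Olig1 and Olig2 went the other way in 3447 SP cells. Olig1 ran from 1062 to 2392 there and from 2963 to 5321 in neurosphere SP cells. Olig2 ran from 1616 to 2601 and from 3613 to 5384 in the same groups. The 6 measured oligodendrocyte markers summed to 16144 to 26840 in the tumour groups and 3388 to 7001 in the neurosphere groups, with Mag and Mog no higher than 30.9 in any group.

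The summed astrocyte and radial glia list ran from 28050 to 41400 in the tumour groups and from 37620 to 64590 in the neurosphere groups. This sum hides a split list. Of 10 genes, 1 was higher and 4 lower in 3447 SP cells, 1 and 3 in 4346 SP cells and 2 and 3 in 3447 non-SP cells. Over all genes, 18.5%, 23.4% and 18.5% passed. S100b ran from 2991 to 5804 in the tumour groups and from 52.9 to 477 in the neurosphere groups. Gja1 ran from 1.13 to 2369 and from 2956 to 11188. Of 4 neural stem genes, 0 were higher and 3 lower in 3447 SP cells, 0 and 3 in 4346 SP cells and 0 and 2 in 3447 non-SP cells. The shares over all genes are those just given. Sox2 ran from 5656 to 7326 in the tumour groups and from 5726 to 7262 in the neurosphere groups. Nes ran from 336 to 570 and from 1145 to 2079. Prom1 ran from 0.829 to 66.1 and from 116 to 1281, and Msi1 from 318 to 1123 and from 1034 to 2114. Endothelial markers summed to at most 297 in any group. Pericyte and fibroblast markers summed to 7568 to 7994 in 4346 SP cells, mostly Col1a1, against 251 to 328 in neurosphere SP cells. The sums were 1069 to 3096 in 3447 SP cells, 390 to 1412 in 3447 non-SP cells and 89.5 to 242 in neurosphere non-SP cells. Of the 4 tested genes of this list, 1 was higher and 0 were lower in each comparison with the matching neurosphere cells. Col1a1 alone ran from 7366 to 7658 in 4346 SP cells. Col1a2 ran from 3.41 to 14.0 there and from 16.1 to 46.4 in neurosphere SP cells. The part of these marker differences in the Fgfr2, Fgfrl1 and Fgf1 results was not tested, and fewer cells of a type and less RNA per cell cannot be told apart in such samples.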

How the data were processed

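The data were 15 Affymetrix arrays in 5 groups of 3. Per the labels' protocols, small RNA amounts were extracted on columns, amplification used NuGEN Ovation Pico, and the label was biotin. The authors deposited intensities, linear MAS5 signals, which per the submitters' processing notes were made in Affymetrix Expression Console (version not stated there). After the lowest and highest 2% were dropped, the mean was 500.003 on each array, so the values were scaled. Probe sets were named from the platform annotation, 34945 with 1 symbol, 932 with several and 9160 with none. Because array medians differed over 1.5 times, signals were quantile-normalized, and log2(signal + 16) was fitted with limma 3.58.1 in R 4.3.3 over all 15 arrays, 5 group means, 10 residual degrees of freedom and a trend of spread, two-sided, with Benjamini-Hochberg adjustment over 26256 probe sets at 0.05. A gene in a pathway or marker list was read from its brightest probe set. Pathway genes were named by passing the test without overlap, with the largest fold changes in each list, and the others named were chosen after their values were seen. The fit was tested on simulated data. The members and lists were chosen with earlier results of these data known.

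Equally numbered SP and non-SP arrays deviated together in neurospheres (r = 0.484, 0.454 and 0.504) but not in 3447 (r = -0.265, -0.258 and -0.158), so only the neurosphere numbers were taken to pair samples, from the data. Alternatives were other normalizations, pseudocounts, filters, probe set rules, samples in the fit, array weights, blocks and leaving out each array. Array number limits precision, and p-values between SP and non-SP cells measure spread between these cultures.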

Additional observations from a re-analysis of the deposited data

Results flagged for a closer look

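Gpc4, a glypican that can bind FGFs, differed between the tumour SP groups when each is set against neurosphere SP cells. The difference, 3447 SP minus 4346 SP, was -2.45 ± 0.49 (log2, limma adjusted p = 0.0216), with 119 ± 47.4 in 3447 SP cells and 673 ± 230 in 4346 SP cells (SD, n = 3 each). It kept its sign in 26 alternatives and was no longer past the threshold in 4. Its other tested probe set gave -3.45.

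Stat3, a transcription factor downstream of growth factor receptors, differed between the same groups by 1.92 ± 0.44 (limma adjusted p = 0.0438), with 531 ± 141 in 3447 SP cells and 117 ± 33.5 in 4346 SP cells. It lost the threshold in 17 of 26 alternatives, and the other 2 tested Stat3 probe sets gave 0.19 and 0.40. The groups hold 3 arrays each, too few for a test of single outlying arrays.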

How the results depend on the processing

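Over 28 alternatives, the 56 tested results of the members gave 1448 values, of which 34 turned sign, 8 lost a call and 13 gained one. No called member changed sign. Read by the brightest probe set, the number of member genes that passed in 3447 SP against neurosphere SP cells was 0, and was 1 when probe sets were averaged per gene, with only the compared groups fitted and with array weights, and 0 to 1 when 1 array was left out. In 4346 SP against neurosphere SP cells it was 2, was 1 without a trend of spread, and was 1 to 2 when 1 array was left out. In 3447 non-SP against neurosphere non-SP cells it was 1, was 2 with averaged probe sets and with array weights, and was 1 to 2 when 1 array was left out. The cause of these shifts was not tested.

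Values that turned sign were small and never called. Without normalization these were -0.028 for Fgfr1 1436551_at in neurosphere SP against non-SP cells, -0.016 for Fgfr3 1425796_a_at in 3447 non-SP against neurosphere non-SP cells, and, in 3447 SP against 4346 SP cells, 0.14 for Fgfr1 1425911_a_at and 0.18 for Fgfr3 1425796_a_at. In that pair centring on medians gave -0.26 for Fgfr1 1436551_at, and array weights gave 0.034 for Fgfr1 1424050_s_at and 0.35 for Fgfr3 1421841_at. Averaged probe sets gave -0.029 for Fgfr1 in neurosphere SP against non-SP cells, and array weights 0.0012 for the Fgfr3 1421841_at difference of SP effects.

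When 1 array was left out, 3447 SP against 4346 SP cells ran from -0.73 to 0.11 (Fgfr1 1424050_s_at), -0.15 to 0.23 (1436551_at), -0.31 to 0.13 (1425911_a_at), -0.22 to 0.12 (Fgfr2), -0.37 to 0.33 (Fgfr3 1421841_at) and -0.38 to 0.00029 (Fgfr3 1425796_a_at). In neurosphere SP against non-SP cells the ranges were -0.14 to 0.31 (Fgfr1 1436551_at), -0.17 to 0.67 (Fgfrl1 1447878_s_at) and -0.22 to 0.61 (1451912_a_at). For Fgfr3 1425796_a_at they were -0.085 to 0.35 in 3447 SP against non-SP cells, -0.36 to 0.045 in 4346 SP against neurosphere SP cells and -0.042 to 0.40 in 3447 non-SP against neurosphere non-SP cells. The Fgfr3 1421841_at difference of SP effects ran from -0.40 to 0.31.

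Over all probe sets, the count in 3447 SP against non-SP cells was 1 and lay between 0 and 38 over the alternatives, and in neurospheres it was 3 and lay between 0 and 11. With only the compared groups fitted it was 3282 in place of 5210 in 4346 SP against neurosphere SP cells and 163 in place of 316 in 3447 SP against 4346 SP cells, where leaving out 1 array gave 147 at lowest. Centring on medians moved the median of all probe sets by 0.15 in 4346 SP and by 0.12 in 3447 non-SP cells against neurospheres, by -0.13 in 3447 SP cells against neurospheres and by -0.28 between 3447 SP and 4346 SP cells. Of the calls, 69.7%, 64.6%, 44.9% and 8.12% were then higher in that order, against 51.4%, 53.8%, 52.8% and 36.1%. The replicate block changed no member call. With it in neurospheres the counts were 5 in 3447 and 11 in neurospheres, and in both origins 4 and 3. Numbers that do not pair in 3447 make that last fit a hint only. The block was not run between origins, where it cannot be fitted with the mouse spread kept.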
